A study of Mus musculus with 15 samples.

Results

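Protein synthesis genes were described here by the chromatin accessibility of 51 genes, of 10268 genes with a listed peak in the series. The genes were taken by symbol: 30 translation initiation factor genes (Eif symbols, without Eif2ak3), 8 elongation factor genes (Eef symbols) and 13 cytosolic aminoacyl-tRNA synthetase genes. Classes follow the symbol and also hold regulators: eIF2 kinase and 4E-binding protein genes under initiation, and Eef2k, Eef1aknmt and Eef1e1 under elongation. The synthetases were 13 of 20 symbols searched, and the other 7 had no listed peak. Accessibility was read by ATAC-seq, an assay that inserts sequencing tags into open chromatin with a transposase, in islets of 15 mice, all male and 3 months old. Every mouse was Arid1a fl/fl and carried MIP-rtTA, a transactivator under the mouse insulin promoter that needs doxycycline. All received doxycycline at 1 g/L for 2 weeks, and the labels give 1 week from its withdrawal to PPx (partial pancreatectomy). The KO-labelled (βKO) mice also carried TRE-Cre, so that Cre is made in beta cells, while other islet cells keep the gene. The product of Arid1a is part of SWI/SNF complexes, which move and evict nucleosomes. The groups were 4 KO-labelled and 4 control mice taken 6 days after partial pancreatectomy (PPx), and 3 KO-labelled and 4 control mice taken before it. PPx removes part of the pancreas, after which the remaining beta cells can proliferate.

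Translation starts when the ternary complex of eIF2, GTP and initiator tRNA joins eIF3 and the small ribosomal subunit, and eIF4E, eIF4G and eIF4A load the mRNA by its cap. The exchange factor eIF2B recharges eIF2, and kinases that phosphorylate eIF2α slow initiation under stress. Elongation factors bring charged tRNAs to the ribosome and move it along, and each synthetase couples one amino acid to its tRNA. Beta cells make insulin in large amounts and are known to be sensitive to disturbed translation control.

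Values per library were not analysed here, since the tables hold group means, and depth per library is unknown. A level is a group's deposited log2 concentration in a peak of 601 bp, taken here as the log2 of its mean normalised reads. All peaks have this width, so levels of different genes can be set side by side within a table. A fold is the difference of 2 such levels, KO-labelled minus control or after minus before PPx. Its implied standard error (SE) comes from the deposited p, read as a two-sided normal test. A peak was called at a deposited FDR of 0.05 or below, and rose or fell are used of called peaks. The Arid1a exon 9 peak stood higher under the KO label both after PPx (4.04, against 0.40 in controls) and before it (5.49, against 1.21 in controls) in the authors' deposited tables. No label says which exon is floxed, and the groups are therefore called by their label. How reads of near-identical copies were counted (Eif2s3x and Eif2s3y, Eif1a and Eif1ax, and Eef1a1 have such copies) was not stated, and their values are uncertain to that extent.

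The promoters of 8 genes are shown. Eif2s1, Eif2s3y, Gars and Mars1 had a called promoter peak, and Eif2s3x, whose called peak is distal, is the X-linked partner of Eif2s3y. Eif4e, Aars and Tars had no called peak and are shown for the letter patterns described next. RefSeq windows run from 250 bases before to 50 bases after the annotated start (GRCm38.p6, whose chromosomes are those of mm10), and 40 of the 51 genes had one. Capitals mark matches, on either strand, to TGATGNAA (ATF4 and C/EBP composite), TGACGTCA (CRE), CACGTG (E-box), CCGGAAG (ETS), GCGCATGCG (NRF1), ATGGCGG (YY1) and TGANTCA (AP-1). Matches on the minus strand read as the reverse complement, so TTTCATCA and TTGCATCA are composite matches, CTTCCGG is an ETS match and CCGCCAT is a YY1 match.
Eif2s1 (chr12:78861822-78862121, plus strand): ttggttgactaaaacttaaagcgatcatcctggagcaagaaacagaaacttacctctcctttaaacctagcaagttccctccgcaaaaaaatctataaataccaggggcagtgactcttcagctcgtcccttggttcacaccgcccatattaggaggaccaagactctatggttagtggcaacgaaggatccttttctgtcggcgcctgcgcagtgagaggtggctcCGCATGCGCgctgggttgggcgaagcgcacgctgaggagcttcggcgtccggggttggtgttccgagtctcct
Eif2s3x (chrX:94212602-94212901, minus strand): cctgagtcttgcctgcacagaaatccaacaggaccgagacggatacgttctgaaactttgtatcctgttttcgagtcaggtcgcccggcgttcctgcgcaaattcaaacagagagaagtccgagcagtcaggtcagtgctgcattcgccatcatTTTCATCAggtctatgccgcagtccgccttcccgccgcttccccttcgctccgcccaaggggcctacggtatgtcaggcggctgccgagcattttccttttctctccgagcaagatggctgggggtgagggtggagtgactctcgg
Eif2s3y (chrY:1010345-1010644, plus strand): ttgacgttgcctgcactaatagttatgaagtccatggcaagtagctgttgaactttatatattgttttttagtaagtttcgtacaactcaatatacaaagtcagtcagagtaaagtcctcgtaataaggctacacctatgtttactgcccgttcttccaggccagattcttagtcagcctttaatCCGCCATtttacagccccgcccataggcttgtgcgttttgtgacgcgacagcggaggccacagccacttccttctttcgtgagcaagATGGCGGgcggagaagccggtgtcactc
Eif4e (chr3:138527018-138527317, plus strand): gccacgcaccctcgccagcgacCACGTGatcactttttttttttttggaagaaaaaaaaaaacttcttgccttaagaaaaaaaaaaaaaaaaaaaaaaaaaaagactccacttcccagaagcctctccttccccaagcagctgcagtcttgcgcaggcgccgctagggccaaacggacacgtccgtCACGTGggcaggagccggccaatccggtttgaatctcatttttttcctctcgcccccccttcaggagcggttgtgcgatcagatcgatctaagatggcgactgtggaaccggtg
Aars (chr8:111033592-111033891, plus strand): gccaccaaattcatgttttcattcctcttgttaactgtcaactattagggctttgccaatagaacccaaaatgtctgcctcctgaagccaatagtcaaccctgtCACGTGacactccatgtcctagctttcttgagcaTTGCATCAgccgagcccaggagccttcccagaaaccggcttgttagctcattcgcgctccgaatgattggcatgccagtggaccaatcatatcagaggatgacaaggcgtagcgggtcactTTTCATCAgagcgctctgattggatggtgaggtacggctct
Gars (chr6:55037751-55038050, plus strand): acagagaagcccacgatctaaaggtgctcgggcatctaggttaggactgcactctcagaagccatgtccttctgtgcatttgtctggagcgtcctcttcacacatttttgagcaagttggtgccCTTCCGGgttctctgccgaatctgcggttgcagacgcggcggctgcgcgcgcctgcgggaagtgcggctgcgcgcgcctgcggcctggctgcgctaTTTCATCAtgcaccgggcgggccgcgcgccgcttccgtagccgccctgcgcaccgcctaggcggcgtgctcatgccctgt
Tars (chr15:11399609-11399908, minus strand): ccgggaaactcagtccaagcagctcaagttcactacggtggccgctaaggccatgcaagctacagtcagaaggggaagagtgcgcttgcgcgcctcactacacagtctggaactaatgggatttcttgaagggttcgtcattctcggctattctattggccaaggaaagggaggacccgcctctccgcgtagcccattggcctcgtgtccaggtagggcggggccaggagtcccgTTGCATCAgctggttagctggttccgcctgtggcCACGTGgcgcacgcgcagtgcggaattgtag
Mars1 (chr10:127311737-127312036, minus strand): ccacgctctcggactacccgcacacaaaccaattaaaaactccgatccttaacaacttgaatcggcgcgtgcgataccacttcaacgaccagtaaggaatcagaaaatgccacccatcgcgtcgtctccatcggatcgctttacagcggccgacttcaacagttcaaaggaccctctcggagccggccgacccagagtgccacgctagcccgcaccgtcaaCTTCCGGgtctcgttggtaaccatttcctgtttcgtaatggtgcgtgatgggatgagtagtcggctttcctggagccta

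Letter matches are a description and show no binding. CACGTG, the letters read by MYC, MAX and related factors, stood in 13 of 40 windows (32.5%), against 9.92% of 5748 genes with a listed promoter peak and 7.15% of all 32851 RefSeq windows. Its holders were Eif3a, Eif3f, Eif3k, Eif4a1, Eif4e, Eif5a, Eef2, Eef2k, Eef1aknmt, Aars, Farsb, Iars and Tars. Eif4e held it at 2 places, 64 and 228 bases before its start. TGATGNAA, the pattern read by the stress-response factor ATF4 with C/EBP partners, stood in 5 windows (12.5%), against 1.84% of listed genes and 3.97% of all windows. Its holders were Eif2s3x and 4 of 10 synthetases with a window: Aars, Gars, Iars and Tars. In Aars it stood 112 bases before and 9 bases after the start, in Tars 15 bases before it and in Gars 30 bases before it.

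The other letters were nearer to the listed genes. CCGGAAG stood in 10 windows (25.0%, against 17.6% of listed genes), and ATGGCGG in 4 (10.0%, against 7.78%). GCGCATGCG stood in 2 (5.0%, against 3.97%), and TGANTCA in 3 (7.5%, against 4.02%). TGACGTCA stood in 1, that of Eef2 (2.5%, against 3.55%). GGGCGG, the GC box, stood in 27 (67.5%, against 68.1%), and CCAAT in 15 (37.5%, against 42.8%). GGGCGG can overlap ATGGCGG. The terminal oligopyrimidine (TOP) pattern, which makes mRNAs depend on mTORC1, was searched as a C at the annotated start followed by 4 pyrimidines. It stood there in Eif2s3x and Eif3f (5.0%, against 2.35%). Starts annotated at another base are missed, so the count does not show which genes lack TOP. Genes without a window, among them Eef1d, Eef1g, Eif3e and Eif3h, were not searched. GC content had a median of 59.7% in the 40 windows, against 61.7% in listed genes and 52.7% in all windows.

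**Figure D1:**
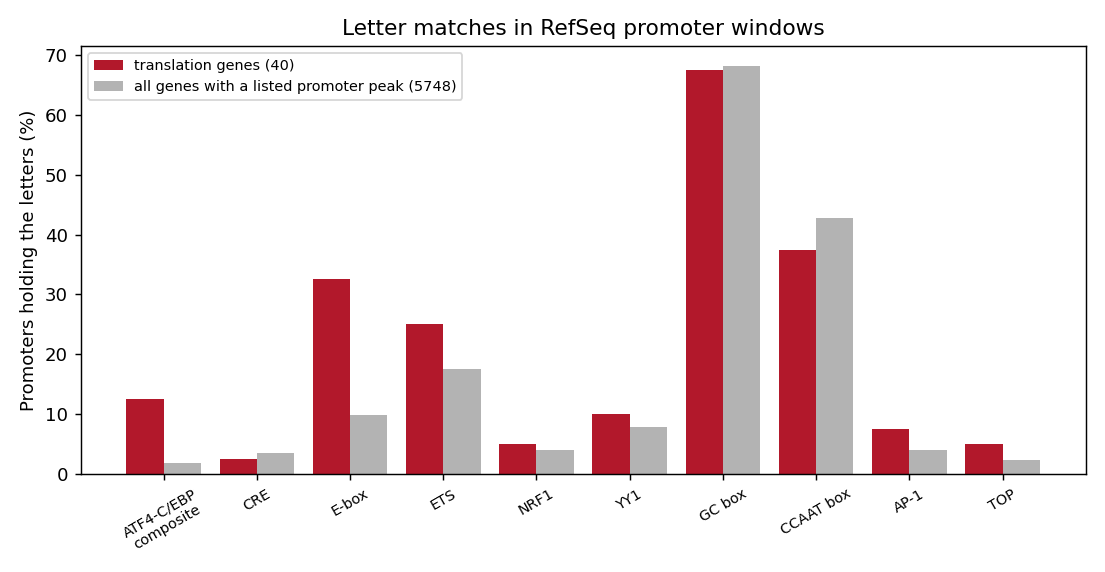
Bars give the percentage of RefSeq promoter windows that hold each letter pattern on either strand, for 40 translation genes and for 5748 genes with a listed promoter peak. The E-box letters (32.5%, against 9.92%) and the ATF4 and C/EBP letters (12.5%, against 1.84%) show the widest gaps relative to the listed genes.

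The promoter peaks mostly lay on the genes' own starts. Of 52 promoter peaks of translation genes after PPx, 41 belonged to a gene with a RefSeq window, and 35 of these 41 held the gene's own start, at a median of 96 bases from the peak centre. Some peaks are shared with another gene. The Eif2s1 peak (chr12:78861444-78862044) held the start of Atp6v1d, 106 bases from its centre, and lay 328 bases from the start of Eif2s1. The Eif2a peak (chr3:58525652-58526252) held the start of Serp1, 68 bases from its centre, beside that of Eif2a, and the Eif3k peak held the start of Map4k1. The peaks assigned to Eef2 and Eef1b2 lay 1651 and 4398 bases from their RefSeq starts. A second Eef1a1 promoter peak (chr9:78488881-78489481) lay 7457 bases from the RefSeq start of Eef1a1 and held the start of LOC115487230. The distal Eif2s3x peak lay 34738 bases from its start, and the gene name there is the deposited assignment.

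Before PPx, no translation gene differed by genotype at the FDR threshold. This comparison sets KO-labelled against control islets at rest. The authors' deposited table showed that 0 of 40 peaks rose and 0 fell, where 0.0128% of all 7826 peaks rose and 0.0% fell. The median log2 fold of the 40 peaks was -0.07, with a range of -1.08 to 0.71, against 0.00 over all peaks. The fold was above 0 for 15 peaks (37.5%, against 48.9% of all peaks) and below 0 for 24. One peak had an unadjusted p under 0.05, that of Mars1, which encodes methionyl-tRNA synthetase. Mars1 had a level of 2.81 in KO-labelled islets and 3.89 in control islets, a fold of -1.08 (SE 0.538) at an FDR of 1 in the authors' deposited table, and the peak was called in 0 of 3 KO-labelled and 2 of 4 control libraries. Eif5a, which helps the ribosome through difficult peptide bonds, was at 3.47 in KO-labelled and 4.17 in control islets (fold -0.70, SE 0.442, FDR 1) in the authors' deposited table, and the peak was called in 0 of 3 KO-labelled and 4 of 4 control libraries. The highest fold was 0.71 (SE 0.528) at the promoter of Dars, the aspartyl-tRNA synthetase gene, at 3.99 in KO-labelled and 3.28 in control islets in the authors' deposited table. All 40 peaks had an FDR of 1.

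After PPx, 7 of 61 translation gene peaks rose in KO-labelled islets and 0 fell. They lay at Eif1ax, Eif2a, Eif2s1, Eif2s3x, Eif2s3y and Eif4g2 among initiation factors and at Nars among synthetases, with folds of 0.85 to 1.29, and no elongation factor peak was called. The share called was 11.5%, where 9.89% of all 13111 peaks rose. At promoters it was 5 of 52 (9.62%), where 14.3% of all 8050 promoter peaks rose. The shares do not set the translation genes apart from the table. Their median log2 fold was 0.65, with quartiles at 0.42 and 0.82, against 0.61 over all peaks, and at promoters 0.68, against 0.71 over all promoter peaks. The fold was above 0 for 59 of 61 peaks (96.7%), where it was for 90.3% of all peaks. Of the 61, 23 (37.7%) were higher at an unadjusted p under 0.05, where 33.0% of all peaks were. At promoters the order was reversed: 21 of 52 (40.4%) were higher at that p, where 45.2% of all promoter peaks were. Most peaks of the table thus had higher levels in KO-labelled islets. With folds centred on the table median of 0.61, 0 of 61 were called (lowest adjusted p 0.286), where 0.0153% of all peaks were called higher and 0.374% lower.

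**Figure D2:**
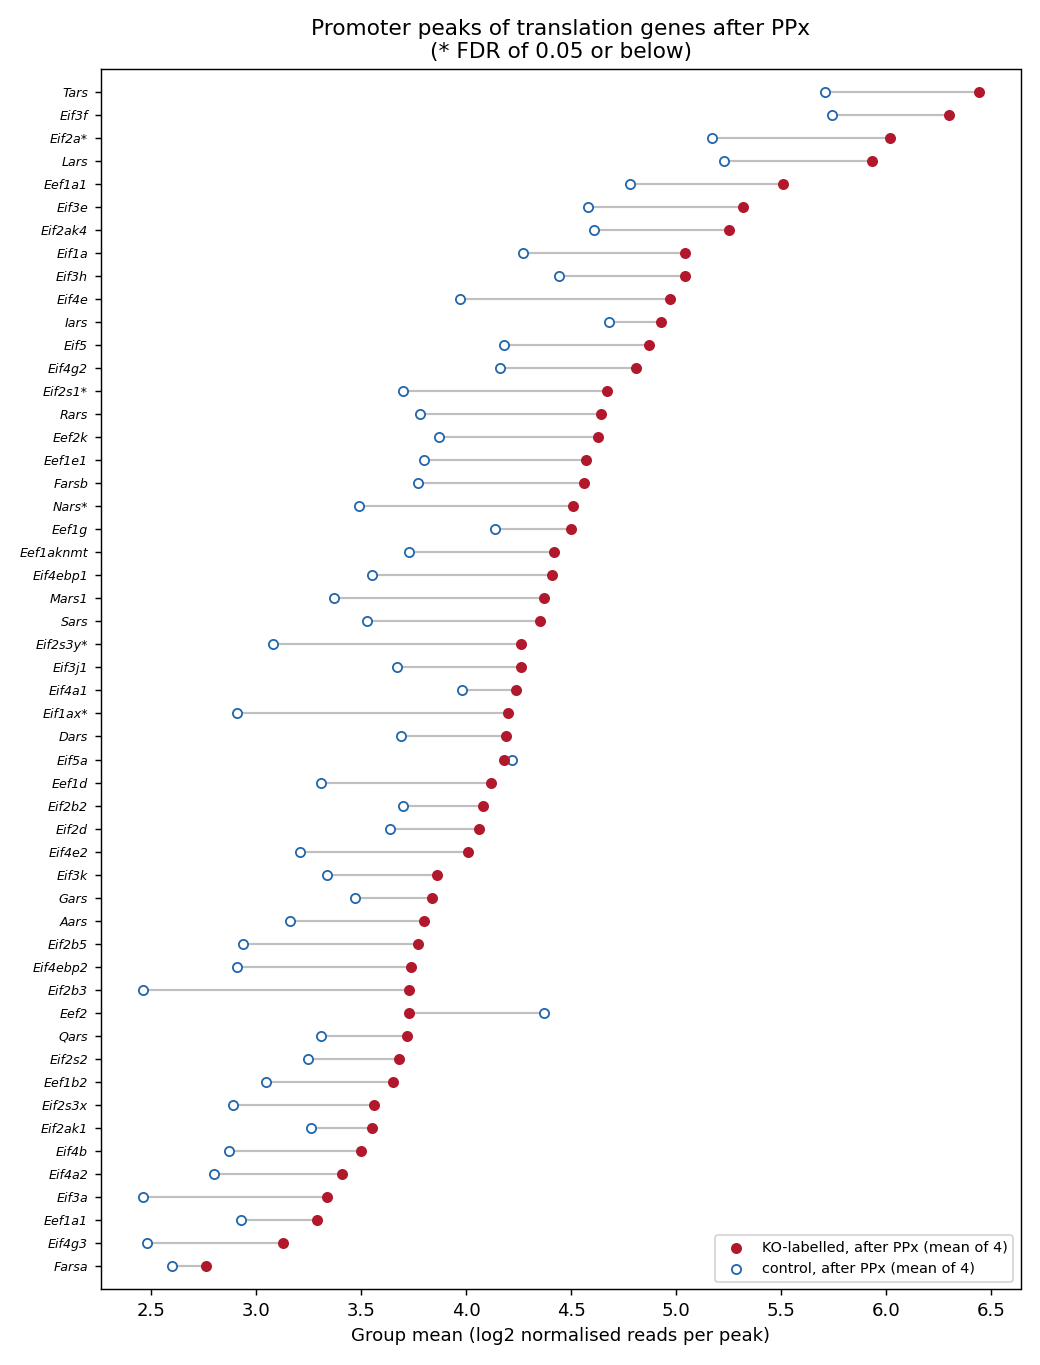
Each row is a promoter peak of a translation gene after PPx, with the mean level (log2 normalised reads per peak) of 4 KO-labelled mice as a filled point and of 4 control mice as an open point. Levels in KO-labelled islets lie to the right of controls in 50 of 52 rows (96.2%, against 96.9% of all promoter peaks). The exceptions are Eef2 and Eif5a, and asterisks mark the 5 called peaks.

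Peaks assigned to eIF2 genes made up 3 of the 7 called peaks. Of these, only the Eif2s3y peak held its own gene's start. eIF2 is built of α, β and γ subunits, and Eif2s1 encodes the α subunit that stress kinases phosphorylate. The promoter peak assigned to Eif2s1 was at 4.67 in KO-labelled islets and 3.70 in control islets. It had a fold of 0.97 (SE 0.344, FDR 0.0436) in the authors' deposited table, and 4 of 4 and 1 of 4 libraries had a call. As described above, that peak held the start of Atp6v1d and not that of Eif2s1. The γ subunit has an X-linked and a Y-linked gene. The distal Eif2s3x peak (chrX:94177613-94178213) was at 5.03 in KO-labelled and 3.98 in control islets, a fold of 1.05 (SE 0.350, FDR 0.0386) in the authors' deposited table, called in 4 and 3 of 4 libraries. The Eif2s3y promoter was at 4.26 in KO-labelled and 3.08 in control islets, a fold of 1.18 (SE 0.393, FDR 0.0384) in the authors' deposited table, called in 4 and 1 of 4 libraries. The Eif2s3x promoter did not pass, at 3.56 in KO-labelled and 2.89 in control islets (fold 0.67, FDR 1) in the authors' deposited table. Nor did the β subunit gene Eif2s2, at 3.68 and 3.25 in the same order (fold 0.43, FDR 1) in the authors' deposited table.

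The eIF2B genes had no called peak. Eif2b3, which encodes the γ subunit of the exchange factor, had the largest fold of the class, 1.28 (SE 0.504), with levels of 3.73 in KO-labelled and 2.46 in control islets in the authors' deposited table. Its unadjusted p was 0.0111 and its FDR 1. In the authors' deposited table for genotype after PPx, 17 of the 61 peaks, with mean levels up to 3.48, had an FDR of 1, and of these Eif2b3 and Eif4ebp2 had an unadjusted p under 0.05. Eif2b5 was at 3.77 in KO-labelled and 2.94 in control islets (fold 0.83, FDR 1), and Eif2b2 at 4.08 and 3.70 in the same order (fold 0.39, SE 0.395), in the authors' deposited table. Over the 8 peaks of eIF2 and eIF2B the median fold was 0.90. The eIF2 kinase genes had 0 called of 2: Eif2ak4, which encodes the amino acid sensor GCN2, had a fold of 0.64 (SE 0.335), and Eif2ak1, the haem-regulated kinase gene, 0.29 (SE 0.419), in the authors' deposited table.

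Among factors grouped by symbol under start codon selection and ribosome joining, 2 of 6 peaks rose. Eif1ax, which encodes the X-linked eIF1A that scans for the start codon, had the largest fold of all 61 peaks. Its promoter was at 4.20 in KO-labelled and 2.91 in control islets, a fold of 1.29 (SE 0.452, FDR 0.0425) in the authors' deposited table, called in 2 and 0 of 4 libraries. Without a control call, this peak was listed through KO-labelled libraries alone, which favours a high fold. The Eif2a peak, at the gene of an alternative initiator tRNA factor, was at 6.02 in KO-labelled and 5.17 in control islets, a fold of 0.85 (SE 0.313, FDR 0.0475) in the authors' deposited table, and was called in all 4 libraries of each group. Eif5, the gene of the GTPase activator of eIF2, was at 4.87 in KO-labelled and 4.18 in control islets (fold 0.69, SE 0.364, FDR 0.124) in the authors' deposited table. Eif5a stands in this class by its symbol only, since its product acts while peptide bonds are made. It had the lowest fold of the class, at 4.18 in KO-labelled and 4.22 in control islets (fold -0.04, SE 0.368) in the authors' deposited table.

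Of 8 eIF4 peaks, 1 rose. It lay in a distal region (chr7:111122488-111123088) assigned to Eif4g2, which encodes an eIF4G-like scaffold that does not bind eIF4E. Its level was 4.87 in KO-labelled and 3.87 in control islets, a fold of 1.00 (SE 0.342, FDR 0.0396) in the authors' deposited table, called in 4 and 3 of 4 libraries. The Eif4g2 promoter had a fold of 0.65 (SE 0.362, FDR 0.142) in the authors' deposited table. Eif4e, the cap-binding protein gene with the paired CACGTG letters shown above, was at 4.97 in KO-labelled and 3.97 in control islets (fold 1.00, SE 0.412, FDR 0.0639) in the authors' deposited table, but was called in 2 of 4 KO-labelled and 3 of 4 control libraries. Eif4a1, the helicase gene, had the lowest fold of the class, 0.26 (SE 0.370), in the authors' deposited table. The 4E-binding protein genes, whose products block eIF4E when mTORC1 is low, had folds of 0.85 (Eif4ebp1, SE 0.377, FDR 0.0777) and 0.83 (Eif4ebp2, SE 0.418, FDR 1) in the authors' deposited table.

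None of the 8 eIF3 peaks was called, and their median fold was 0.58. Eif3f, an eIF3 subunit gene, was at 6.30 in KO-labelled and 5.74 in control islets (fold 0.56, SE 0.340, FDR 0.174) in the authors' deposited table. Eif3a, the gene of the largest eIF3 subunit, had the highest fold of the class, 0.88 (SE 0.528, FDR 1), at 3.34 in KO-labelled and 2.46 in control islets in the authors' deposited table. The lowest was 0.04 (SE 0.448) at an exon of Eif3h, in the authors' deposited table.

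Of the 13 peaks of elongation factor genes, 0 were called and 1 had a fold below 0. Eef2, which encodes the translocase of elongation, was at 3.73 in KO-labelled and 4.37 in control islets, a fold of -0.65 (SE 0.418, FDR 0.196) in the authors' deposited table, called in 2 and 3 of 4 libraries. That fold stood at percentile 1.38 of all folds in the table, and the peak lay 1651 bases from the RefSeq start. The highest fold of the factors was 0.81 (SE 0.396, FDR 0.102) at Eef1d, a subunit gene of the eEF1 exchange complex, at 4.12 in KO-labelled and 3.31 in control islets in the authors' deposited table. The main Eef1a1 promoter, of the tRNA carrier gene, was at 5.51 in KO-labelled and 4.78 in control islets (fold 0.73, SE 0.322, FDR 0.0761) in the authors' deposited table. Eef2k, the gene of the kinase that inhibits eEF2, had a promoter fold of 0.76 (SE 0.383, FDR 0.110), and the distal peak of the methyltransferase gene Eef1aknmt a fold of 0.23 (SE 0.464), in the authors' deposited table.

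Of 14 synthetase peaks 1 rose, and all 14 had folds above 0, as had 90.3% of all peaks. Nars, the asparaginyl-tRNA synthetase gene, was at 4.51 in KO-labelled and 3.49 in control islets, a fold of 1.02 (SE 0.361, FDR 0.0436) in the authors' deposited table, called in 3 and 0 of 4 libraries. Mars1 lay just outside the threshold, at 4.37 in KO-labelled and 3.37 in control islets (fold 1.00, SE 0.378, FDR 0.0510) in the authors' deposited table, and so did Rars, the arginyl-tRNA synthetase gene (fold 0.86, SE 0.342, FDR 0.0572). Tars, of threonyl-tRNA synthetase, had the highest level of all 61 peaks in KO-labelled islets, 6.44, and was at 5.71 in control islets (fold 0.73, SE 0.321, FDR 0.0760) in the authors' deposited table. Farsa, a subunit gene of phenylalanyl-tRNA synthetase, had the lowest fold, 0.15 (SE 0.716), in the authors' deposited table. Among the genes with TGATGNAA letters, the promoter folds ran from 0.25 to 0.73 with a median of 0.64, against 0.66 for the 35 windows without them, and CACGTG gave 0.64 with and 0.66 without. CCGGAAG gave 0.70 with and 0.65 without, and none of these differences was tested.

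**Figure D3:**
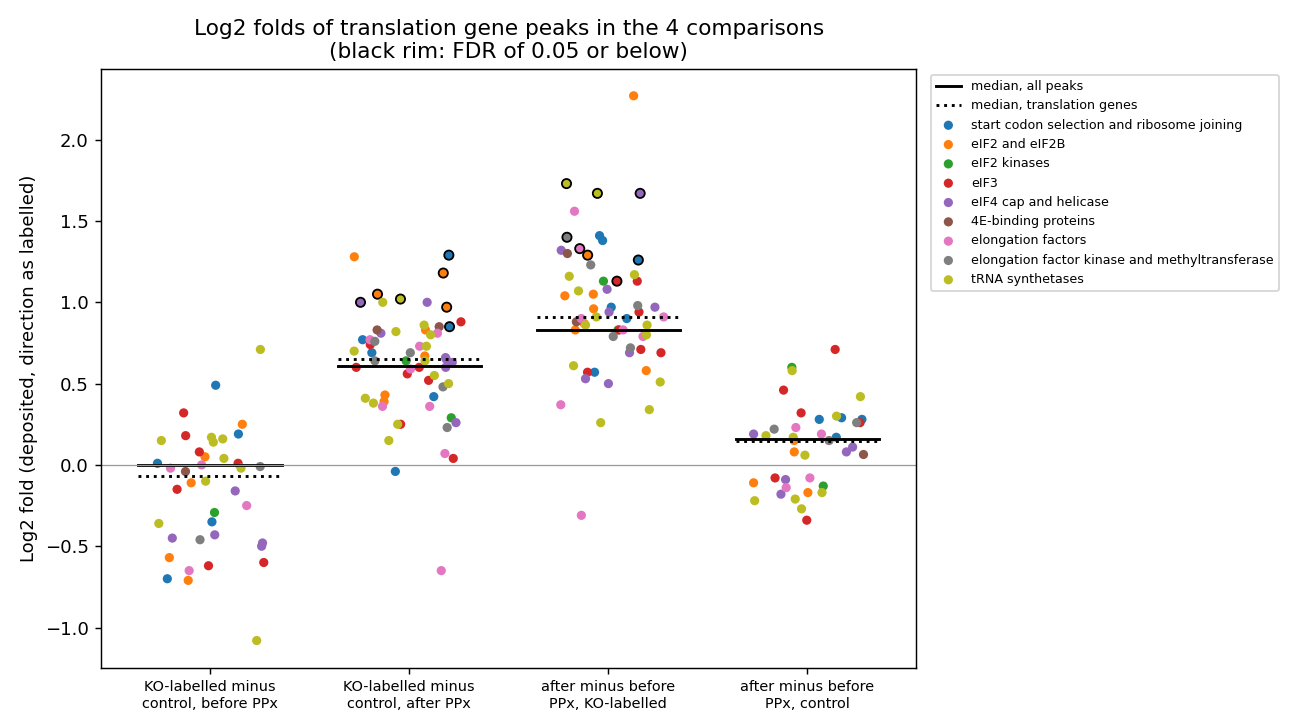
Points are deposited log2 folds of translation gene peaks in the 4 comparisons, coloured by role, with called peaks rimmed in black, solid lines for the median of all peaks and dotted lines for that of the translation genes. The medians of translation genes (-0.07, 0.65, 0.91 and 0.15 from left to right) lie near those of all peaks (0.00, 0.61, 0.83 and 0.16).

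In KO-labelled islets after against before PPx, 8 of 59 translation gene peaks rose and 0 fell. They lay at Mars1 and Gars among synthetases, at Eif4g2, Eif3e, Eif5 and Eif2s3y among initiation factors, and at Eef1e1 and Eef2k among elongation genes, with folds of 1.13 to 1.73. The share called was 13.6%, where 7.45% of all 12767 peaks rose, and at promoters 7 of 52 (13.5%), where 9.73% of all 8033 promoter peaks rose. The median fold was 0.91, against 0.83 over all peaks, and 58 of 59 folds (98.3%) were above 0, where 97.1% of all folds were. Before adjustment, 32 peaks (54.2%) were higher at a p under 0.05, where 39.4% of all peaks were. At promoters 29 of 52 (55.8%) were, where 46.2% of all promoter peaks were. With folds centred on the table median of 0.83, 0 of 59 were called, where 0.0% of all peaks were called higher and 0.0% lower. This comparison shares its 4 libraries after PPx with the comparison of genotypes after PPx, so calls common to both rest in part on the same libraries. Its 3 libraries before PPx are shared with the comparison of genotypes before PPx. There every called peak with a counterpart had a genotype fold below 0, from -1.08 (Mars1) to -0.15 (Eif3e), with none called. Of all 40 translation gene peaks of that comparison, 24 were below 0. A low level before PPx in these 3 libraries thus adds to the folds.

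Mars1 had the largest called fold, and Gars and the distal Eif4g2 peak followed at the same size. Mars1 was at 4.37 after and 2.64 before PPx, a fold of 1.73 (SE 0.484, FDR 0.0282) in the authors' deposited table, and 4 of 4 and 0 of 3 libraries had a call. Gars, the glycyl-tRNA synthetase gene, was at 3.84 after and 2.17 before PPx, a fold of 1.67 (SE 0.550, FDR 0.0425) in the authors' deposited table, and 3 of 4 and 0 of 3 libraries had a call. The genotype fold of the Gars promoter after PPx was 0.38 and was not called. Nars did not pass, at 4.52 after and 3.35 before PPx (fold 1.17, SE 0.427, FDR 0.0524) in the authors' deposited table. Aars had the lowest synthetase fold, 0.26 (SE 0.467), in the authors' deposited table. Median promoter folds in this comparison were 0.86 in the 5 genes with TGATGNAA letters and 0.97 in the 35 without, and 0.80 in the 13 with CACGTG and 1.07 in the 27 without. For CCGGAAG they were 1.23 in 10 genes with and 0.845 in 30 without, and these differences were not tested.

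Among initiation factors the distal Eif4g2 peak had the smallest FDR of all 59. It was at 4.87 after and 3.20 before PPx, a fold of 1.67 (SE 0.438, FDR 0.0251) in the authors' deposited table. Eif3e, an eIF3 subunit gene, was at 5.34 after and 4.20 before PPx (fold 1.13, SE 0.363, FDR 0.0406) in the authors' deposited table. Eif5 was at 4.86 after and 3.60 before PPx (fold 1.26, SE 0.407, FDR 0.0410), and Eif2s3y at 4.31 and 3.02 in the same order (fold 1.29, SE 0.450, FDR 0.0484), in the authors' deposited table. Eif2b3 had the largest fold of all, 2.27 (SE 0.669), at 3.73 after and 1.47 before PPx, with an unadjusted p of 0.000689 but an FDR of 1 in the authors' deposited table. It is 1 of 10 low-level peaks with an FDR of 1 there. Adjusting the deposited p over all listed peaks by Benjamini-Hochberg called 6 of 59 (where 4.49% of all peaks were called higher): Eif2b3, Mars1, Eif4g2, Eef1e1, Eif5 and Eif3e. The same adjustment called 0 of 61 in the genotype comparison after PPx (lowest adjusted p 0.0533), where 4.13% of all peaks were called higher.

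Genes with Eef symbols gave 2 called peaks, at an auxiliary protein gene and a kinase gene. Eef1e1 encodes an auxiliary protein of the multi-synthetase complex, and its promoter was at 4.55 after and 3.22 before PPx (fold 1.33, SE 0.416, FDR 0.0386) in the authors' deposited table. Eef2k, the eEF2 kinase gene, had its promoter at 4.61 after and 3.21 before PPx (fold 1.40, SE 0.465, FDR 0.0431) in the authors' deposited table. Eef2 was again the peak with a fold below 0, at 3.65 after and 3.97 before PPx (fold -0.31, SE 0.846) in the authors' deposited table. By role, median folds ran from 0.83 in eIF3 (7 peaks) to 1.115 in start codon selection and ribosome joining (6 peaks, with Eif5a by its symbol). They were 0.86 in synthetases (13 peaks) and 1.00 in eIF2 and eIF2B (8 peaks).

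The number of libraries in which a peak was called followed the levels. After PPx the 61 peaks were called 192 times in KO-labelled and 98 times in control libraries, and 46 of 61 in more KO-labelled than control libraries. The gap ran through the whole table, where all 13111 peaks were called 37455 times in KO-labelled and 21361 times in control libraries, and 8841 in more KO-labelled than control libraries. In all 4 libraries, 30 of the 61 peaks were called in KO-labelled and 10 in control islets, beside 4897 and 2423 of all 13111 peaks in the same order. The peaks called in no control library numbered 17 (27.9%), against 28.4% of all peaks. None of the 61 lacked a KO-labelled call. These 17, with Eif1ax, Nars and Eif2b3 among them, were thus listed through KO-labelled libraries alone. Within the KO-labelled mice, 19 of 59 peaks (32.2%) were called in no library before PPx, against 31.9% of all peaks. These 19, with Mars1, Gars and Eif2b3 among them, were likewise listed through libraries after PPx alone. Such a listing favours high folds, so for these peaks neither the fold's size nor the library calls add separate support.

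**Figure D4:**
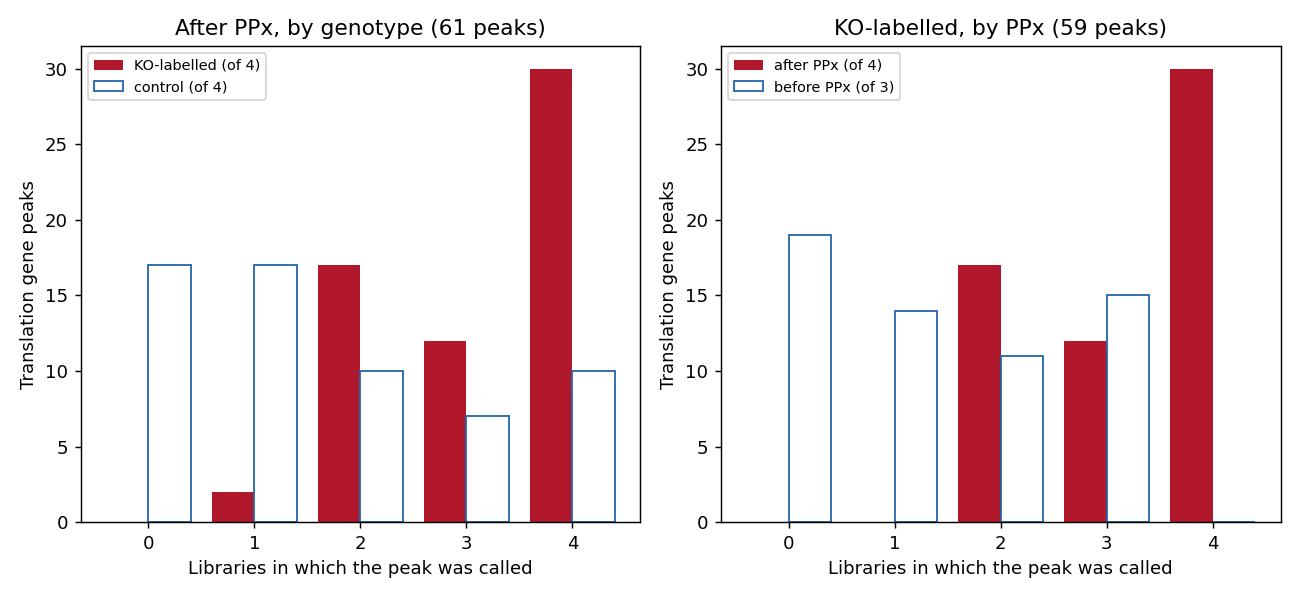
Bars count translation gene peaks by the number of libraries in which each was called, with 61 peaks of KO-labelled and control islets after PPx at left and 59 peaks of KO-labelled islets after and before PPx at right. After PPx 30 of 61 peaks were called in all 4 KO-labelled libraries, against 10 in all 4 control libraries, beside 4897 and 2423 of all 13111 peaks.

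Control islets showed no called change with PPx. Of 39 translation gene peaks in the authors' deposited table, 0 rose, where 0.0% of all 8070 peaks rose, and 0 fell. The median fold was 0.15, with a range of -0.34 to 0.71, against 0.16 over all peaks. Above 0 were 26 folds (66.7%, against 72.8% of all peaks), and 13 were below. The highest fold, and the single unadjusted p under 0.05 (0.0226), was at an intron of Eif3h, at 4.67 after and 3.96 before PPx (fold 0.71, SE 0.311, FDR 0.999) in the authors' deposited table. Of the 8 peaks called in KO-labelled mice, that of Gars had no counterpart here, and the other 7 had folds smaller than their SE. Mars1 was at 3.47 after and 3.69 before PPx (fold -0.22, SE 0.454) in the authors' deposited table of controls. The distal Eif4g2 peak was at 3.95 after and 3.87 before PPx (fold 0.08, SE 0.388) in that deposited table. The other 5 had folds from -0.11 (Eif2s3y, SE 0.407) to 0.28 (Eif5, SE 0.341) in the authors' deposited table of controls.

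Whether the genotype difference itself changed with PPx was tested by the difference of the 2 genotype folds, for 40 translation gene peaks among 7504 matched between the tables. None of the 40 passed an adjusted p of 0.05 (two-sided z test on implied SEs, Benjamini-Hochberg over 7504 peaks), where 0.0267% of all matched peaks did, and the lowest adjusted p was 0.295. At an unadjusted p under 0.05 there were 8 (20.0%), against 14.5% of all matched peaks. The median difference was 0.775, against 0.64 over all matched peaks. Above 0 were 38 of 40 differences, beside 6917 of all 7504. Mars1 had the largest, 2.08 (SE 0.658), from a genotype fold of 1.00 after and -1.08 before PPx. Eif2s3y followed with 1.75 (SE 0.681), the distal Eif4g2 peak with 1.48 (SE 0.568), Eif4e with 1.43 (SE 0.604) and Eef1e1 with 1.42 (SE 0.547). The differences of Eef2 (-0.40, SE 0.617) and Dars (-0.21, SE 0.643) were below 0.

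**Figure D5:**
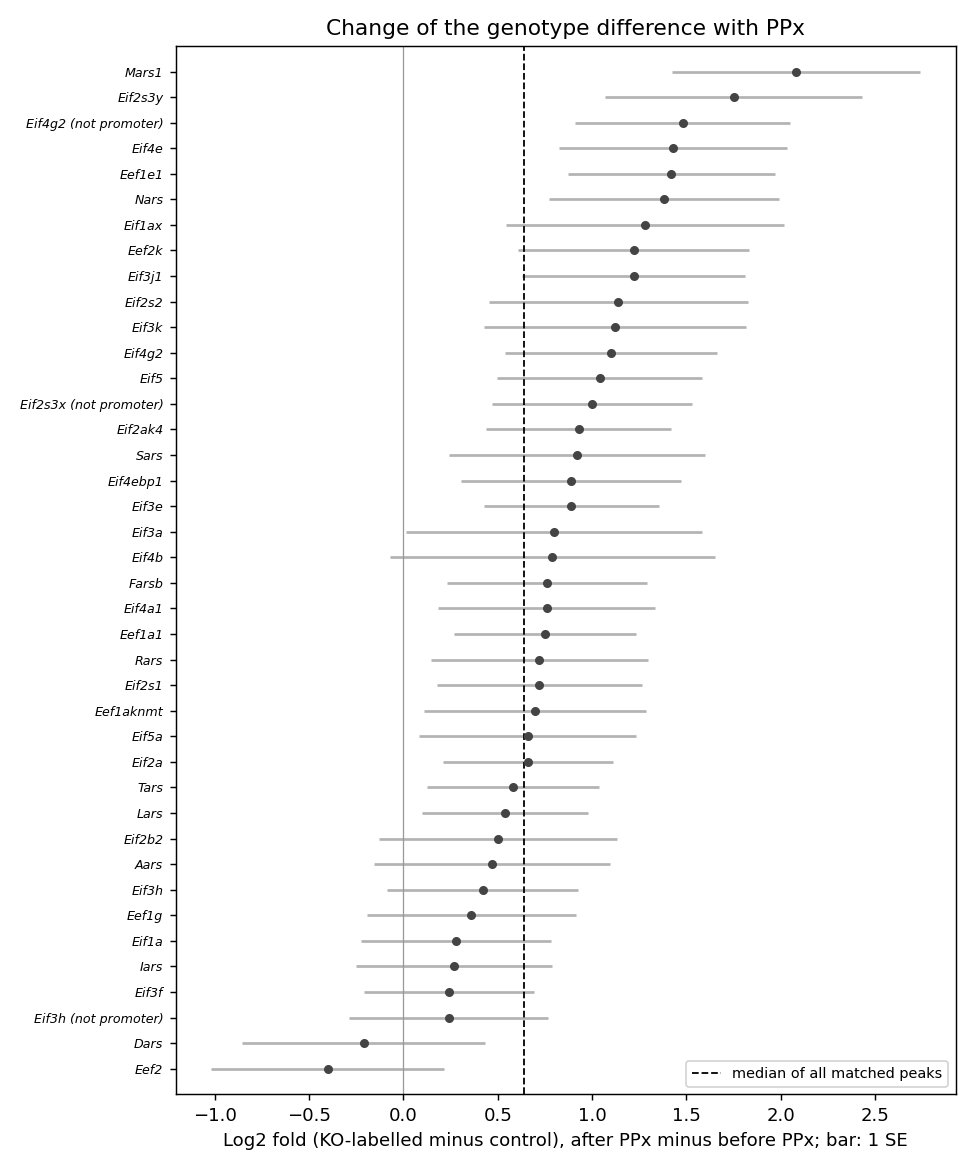
Points give, for 40 translation gene peaks, the genotype fold after PPx minus that before PPx, with bars of 1 implied SE and a dashed line at the median of all 7504 matched peaks (0.64). Mars1 (2.08) lies farthest to the right and Eef2 (-0.40) farthest to the left.

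Other genes of the same pathways were counted beside the shares of all peaks that rose, 9.89% by genotype after PPx and 7.45% with PPx in KO-labelled mice. The lists hold few peaks each, and their shares were not tested. Of 6 peaks of termination, recycling and quality control genes, 2 rose in KO-labelled islets after PPx relative to controls, in the authors' deposited table. They were a distal peak assigned to Etf1, the release factor gene (fold 1.31, SE 0.401, FDR 0.0311), and the promoter of Abce1, the ribosome recycling gene (fold 0.95, SE 0.322, FDR 0.0396). The Etf1 promoter did not pass (fold 0.62, SE 0.301, FDR 0.0995) in the authors' deposited table. Within KO-labelled mice 3 of these 6 rose with PPx, at the Abce1 promoter and at both the distal peak and the promoter of Etf1. Among 12 peaks of cap and poly(A) helper, mTORC1 and MNK genes, 2 rose in the genotype comparison (Pabpc1 and Paip1, which act at the poly(A) tail) and 2 with PPx in KO-labelled mice (Pabpc1 and Rheb, the activator of mTORC1). The 10 peaks of the integrated stress response gave 2 in each, at Eif2ak3 (the PERK gene) and Nars by genotype and at Eif2ak3 alone with PPx, and Nars stands in both lists. The called Eif2ak3 peak by genotype was distal, and those with PPx were distal and intronic. Its promoter near the start passed in neither comparison (fold 0.76, FDR 0.0749 by genotype, and fold 0.72, FDR 0.111 with PPx, in the authors' deposited tables). The Atf4 promoter did not pass after PPx, at 4.08 in KO-labelled and 3.61 in control islets (fold 0.47, SE 0.391, FDR 0.309) in the authors' deposited table. Mitochondrial translation factors gave 0 of 4 called in both comparisons. The scaffold genes Aimp1 and Aimp2 had no listed peak, no peak fell in any of these lists, and 0 peaks of them rose before PPx or in controls.

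Bulk islets hold several cell types, so a change in the share of a type and a change within its cells cannot be told apart. Over all peaks 9.89% rose by genotype after PPx, with a median fold of 0.61, and the marker counts stand beside that. Of the marker genes searched, beta cell markers had peaks at 5 of 9 genes after PPx, with 2 of 11 peaks called (Ins1 and Nkx6-1) and a median genotype fold of 0.66. Alpha cell markers had 0 of 4 called (median 0.40), delta and PP cell markers 1 of 3 (Sst, median 0.53), endothelial markers 0 of 6 (median -0.015), stellate and fibroblast markers 0 of 3 (median 0.68) and leukocyte markers 0 of 2 (median 0.675). Acinar (5 genes) and ductal (4 genes) markers had no listed peak in any table. With PPx in KO-labelled mice 1 beta cell peak (Slc30a8) of 11 and 1 leukocyte peak (Csf1r) of 2 rose, where 7.45% of all peaks did. The medians there were 1.08 in beta, 0.91 in alpha, 0.435 in delta and PP, 0.17 in endothelial, 0.51 in stellate and fibroblast and 1.12 in leukocyte markers, against 0.83 over all peaks. The part of cell makeup in the results on translation genes was not tested.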

How the data were processed

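The submitters' processing notes name mm10 and the tools BWA, cutadapt, DiffBind, MACS and ChIPseeker, and their versions and settings are not given in the sources used here. Libraries held 40000 islet cells and were read as 75 bp single ends, per the labels' protocols. The authors deposited 4 tables of peaks with log2 concentrations per group, a log2 fold, a p-value and an FDR, and the number of libraries in which each peak was called. Their test, the scaling between libraries and the depth are not given in the sources used here. The deposited log2 level over both groups was checked, within 0.011, to be the log2 of the library-weighted mean of the group levels as reads. How a group level averages its own libraries could not be checked. Fully repeated rows were dropped. Groups came from sample titles.

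Members and lists were chosen with earlier results of these data known. Named genes are every called member and the highest and lowest fold per role in the genotype comparison after PPx. Others named were chosen after their values were seen. Dividing a fold's size by the normal quantile of its deposited p gave its SE. Folds below 0.1, or with p at 0.95 or more, took the median SE of their bin, of 40 bins by mean level. This reads the p as spread between mice, 3 or 4 per group. Centred folds and the difference of genotype folds were tested by two-sided z tests with Benjamini-Hochberg adjustment over all peaks (matched by 1 bp or more). Python 3.11.15 was used with pandas 2.3.3 and SciPy 1.17.1, and the code was run on simulated folds. Those came from the same normal model, so they do not check how the deposited p was read. Their planted differences were larger than those of the translation genes, so power at the sizes seen here was not tested. Sequences are RefSeq's, matched by symbol. Alternatives were an FDR of 0.01, adjustment over listed peaks, centring, promoter peaks, 1 peak per gene, repeated rows kept, high levels, factors without synthetases, a 300 bp overlap and binned SEs.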

Additional observations from a re-analysis of the deposited data

How the results depend on the processing

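The 7 calls by genotype after PPx became 0 at an FDR of 0.01, 0 with the deposited p adjusted over all listed peaks and 0 with folds centred on the table median. The 8 calls with PPx in KO-labelled mice became 0 at an FDR of 0.01 and 0 with centred folds. In that comparison centring called 0.0% of all peaks, higher or lower. By genotype after PPx it called 0.0153% of all peaks higher and 0.374% lower. Centring changes the question to difference from the median peak, and it reversed 6 named uncalled folds after PPx: Eif2b2 (-0.22), Eif4a1 (-0.35), Eif2ak1 (-0.32), distal Eef1aknmt (-0.38), Farsa (-0.46) and the Eif3h exon (-0.57). Counts with promoter peaks or 1 peak per gene stayed within 1.5 times, and no genotype by PPx difference passed under any of 3 alternatives. Medians moved less than the median SE of a single peak under every alternative run, which is a wide bar for a median over many peaks. Before PPx the median of -0.07 became 0.005 at high levels and -0.155 without synthetases. By genotype after PPx the median ran from 0.64 to 0.7. The counts before PPx and in controls were 0 under every alternative run. No paired analysis was possible because the tables hold group means and no replicate number is shared. Leaving out single libraries was not run for the same reason, so how far 1 library sets a fold is unknown. Low-level peaks with an FDR of 1 could not be called, which limits calls at 17 and 10 of the peaks in the 2 tables with KO-labelled libraries after PPx.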
